A study of Homo sapiens with 9 samples.

Results

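TTC33, CCDC97, PHF5A and WDR61 are the genes of a small protein network, and their mRNA levels were followed here across 9 RNA sequencing libraries. They are the 4 rows with these symbols among the 60664 genes listed in the count tables, and all 4 were among the 18299 genes that had enough counts to be tested. The cells were HEK293 Flip-In T-Rex, a line derived from human embryonic kidney in which an inserted sequence is switched on with tetracycline. One group of 3 libraries came from cells carrying a tetracycline-inducible microRNA against TTC33, another 3 from cells carrying such a microRNA against CCDC97, and 3 from control cells that expressed neither. All 3 groups were given tetracycline at 100 ng/ml for 3 days, so the agent itself is common to knock-downs and controls, and no group expressed a microRNA directed at neither gene. The labels do not say whether a knock-down line is 1 clone or whether replicates were separate cultures, so the p-values measure the spread between these libraries only.

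A microRNA expressed from a transgene is loaded into an Argonaute protein, pairs with a matching site in an mRNA and lowers that mRNA by cleavage or decay. TTC33 is a protein with tetratricopeptide repeats, a fold that binds other proteins, and the study names it as the centre of an assembly with WDR61 and PHF5A. PHF5A is a small zinc-binding subunit of SF3B, the part of the U2 snRNP that recognises the branch site of introns. WDR61, also called SKIC8, is a WD-repeat protein found both in the PAF1 complex, which travels with RNA polymerase II, and in the SKI complex, which feeds RNA to the cytoplasmic exosome. CCDC97 is a coiled-coil protein known as a partner of SF3B.

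The labels give no sequence for either microRNA. Stretches of 30 bases are shown from the 2 targeted mRNAs, because each holds a heptamer whose presence in 3' UTRs went with lower levels in an earlier analysis of these same libraries. Capitals mark the heptamer, U is written as T, and positions are counted from the 5' end of the longest coding transcript of the gene in GENCODE release 29.
TTC33, coding sequence, heptamer at 444 to 450: taccctatacgaGATGAAAtcacaggtgct
TTC33, 3' UTR, heptamer at 2231 to 2237: atctttgttagaGATGAAAgtagcccactt
CCDC97, coding sequence, heptamer at 645 to 651: tacttcagtgatGAGCAGAtgcggttccgg
CCDC97, 3' UTR, heptamer at 3215 to 3221: cccatttttaaaGAGCAGAgggcctgggcc
The search used the sense strand of the transcript only. GATGAAA was found in 36.0% of the 13697 coding transcripts of tested genes, and in 24.3% of the 1529 whose length was within 10% of that of TTC33, so a single copy is common. GAGCAGA was found in 39.3% of all and in 35.5% of the 1594 of like length to CCDC97, and also once in the 3' UTR of PHF5A. A further heptamer from the same earlier analysis, AGCTATA, was in none of the 4 transcripts. Of genes with GATGAAA in the 3' UTR, 13.8% passed the test as lower in the TTC33 knock-down (adjusted p under 0.05), against 4.81% of those without it. For AGCTATA the shares were 18.6% and 5.13%, and for GAGCAGA in the CCDC97 knock-down they were 8.42% and 1.61%. These shares describe values that chose the heptamers and carry no test. They come from the fit without the correction for GC content and length given further on, and the genes compared were not matched for either. Whether either microRNA pairs at any of these positions was not tested.

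Counts assigned to genes ranged from 21764203 to 36110891 per library. The libraries expressed genes known from HEK293 cells, such as VIM at 557 to 841 CPM (counts scaled to a fixed library total, here without further factors), LIN28B at 145 to 216 and KRT8 at 93.3 to 162, while PTPRC, PECAM1, ALB and MYH7, which mark blood, endothelial, liver and muscle cells, had at most 6 counts in any library. Of other genes looked for as known from HEK293 cells, KRT18 lay at 74.7 to 96.5 CPM. PAX2 and NEFM were low, at 2.52 to 6.41 and 0.62 to 1.08. In both knock-downs replicate 1 differed from replicates 2 and 3 in how levels followed the GC content of genes (the trend at each gene is given further on). In the TTC33 knock-down replicate 1 was the one near the controls, with log2 trends of 0.03, -0.59 and -0.62 at TTC33 in replicates 1, 2 and 3. In the CCDC97 knock-down all departed from the controls there, with -0.24, 0.16 and 0.15. CPM below are scaled with TMM factors, and adjusted p-values are from edgeR's quasi-likelihood test with Benjamini-Hochberg adjustment over all genes tested.

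In the control cells all 4 mRNAs were of middle to high abundance and varied little. Control replicates 1, 2 and 3 held TTC33 at 37.7, 37.1 and 38.6 CPM, CCDC97 at 60.6, 60.1 and 59.5, PHF5A at 41.1, 38.9 and 40.9, and WDR61 at 55.2, 55.9 and 56.9. Per kilobase of all annotated exon bases, mean control levels fell in the order PHF5A (32.6 CPM per kb), CCDC97 (15.7), WDR61 (7.70) and TTC33 (5.54), and no ranges of neighbours overlapped. On this scale PHF5A lay above 93.7% of the 18052 tested genes with an annotated length and TTC33 above 60.3%. The order depends on the length used: per kilobase of the longest coding transcript WDR61 came to 40.4, PHF5A to 37.1, CCDC97 to 18.1 and TTC33 to 14.5, because WDR61 and TTC33 have many annotated exon bases outside that transcript.

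**Figure D1:**
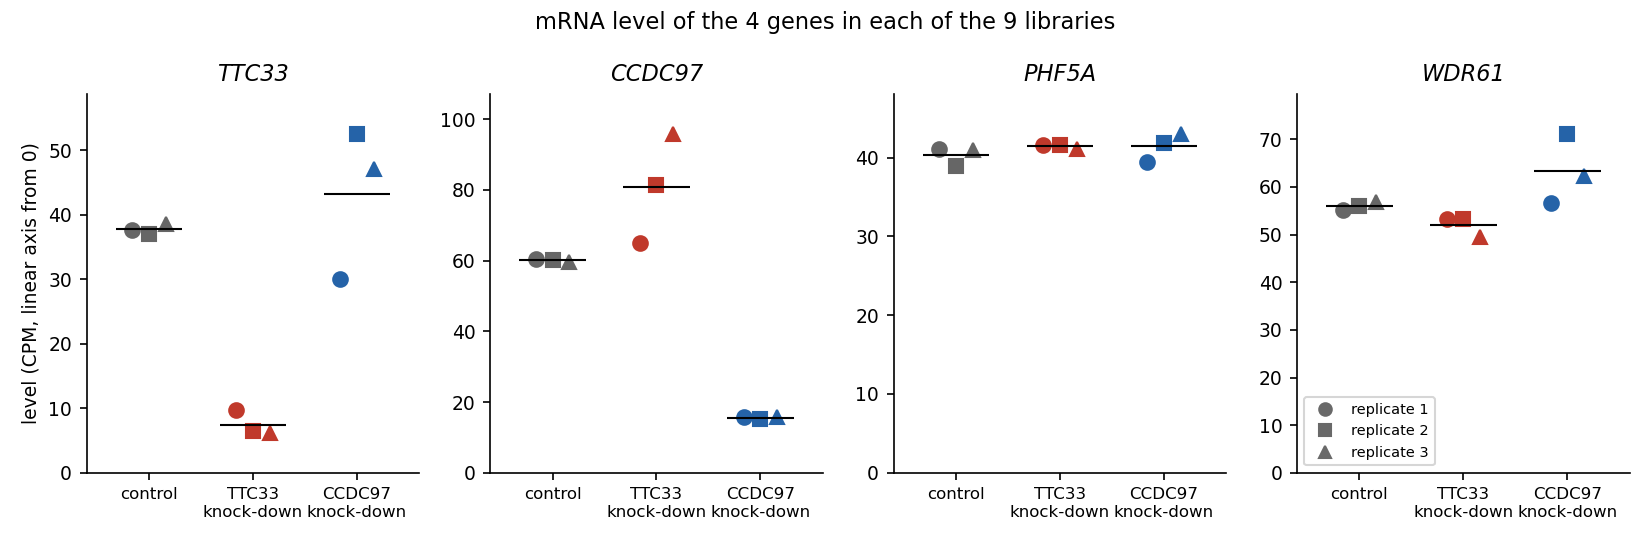
Level of each gene in CPM on a linear axis from 0, one panel per gene, with a symbol per replicate and a horizontal line at the group mean. TTC33 is low in its own knock-down and CCDC97 in its own, while PHF5A stays between 38.9 and 43.0 CPM in all 9 libraries.

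TTC33 mRNA fell in the cells with the microRNA against it. The gene (ENSG00000113638; GRCh38 chromosome 5, 40512333 to 40755975, minus strand) had 9.67, 6.41 and 6.16 CPM in replicates 1, 2 and 3 of the TTC33 knock-down, from 301, 185 and 161 reads. These levels are 25.6%, 17.0% and 16.3% of the control mean. All 3 lay far below the controls, and replicate 1 kept the most. The fitted log2 fold change was -2.34 ± 0.21 (SE, n = 3 against 3; edgeR adjusted p = 0.000106). The level that remained was 19.7% of control, with a 95% interval of 14.2% to 27.3%. Among all genes tested 5.44% passed as lower in this comparison, and in 17.8% all 3 knock-down libraries lay below all controls. Only 2 of the 18299 genes had a more negative fitted change in this comparison. In RNA from a whole culture, fewer cells with the mRNA and less of it per cell cannot be told apart. The call held in each of the 20 alternative analyses, with log2 fold changes from -2.59 to -1.98.

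CCDC97 mRNA fell in turn in the cells with the microRNA against CCDC97. The gene (ENSG00000142039; chromosome 19, 41310189 to 41324883, plus strand) had 15.8, 15.3 and 15.7 CPM in the 3 replicates, from 448, 463 and 324 reads, or 26.4%, 25.5% and 26.1% of the control mean. On this scale the replicates were closer together than those of TTC33 in its own knock-down, which does not hold after removal of the GC trend given further on. On the log2 scale this was a change of -1.94 ± 0.12 (SE; edgeR adjusted p = 1.24e-05), leaving 26.0% with a 95% interval of 21.5% to 31.3%, and it stayed between -2.04 and -1.86 in the 20 alternatives, all of them past the threshold. Of all genes tested 2.49% passed as lower here, and in 15% the groups were separated downwards. Its change was the 7th most negative of the 18299.

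Each targeted gene was also read in the line directed at the other. CCDC97 was higher in the TTC33 knock-down than in controls, at 65.1, 81.3 and 95.8 CPM in replicates 1, 2 and 3 against 59.5 to 60.6 in controls, so the groups did not overlap and the 3 knock-down replicates were spread widely. The log2 fold change was 0.43 ± 0.12 (SE; 95% interval 0.17 to 0.68; edgeR adjusted p = 0.0371). In this comparison 11.9% of all genes tested passed in either direction, 6.5% upwards. The groups did not overlap in 36.8% of genes, and in 19% they were separated upwards. The call was lost in 7 of 9 analyses that left out a library, the exceptions being those without replicate 1 of the TTC33 knock-down (log2 fold change 0.56) or of the CCDC97 knock-down (0.42). The value was 0.27 without TTC33 knock-down replicate 3 (edgeR adjusted p = 0.155). With the replicate number as a block, edgeR gave an adjusted p = 0.0913.

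TTC33 mRNA in cells depleted of CCDC97 did not pass. It had 29.96, 52.5 and 47.0 CPM in replicates 1, 2 and 3, the first below and the others above all controls, so the groups overlapped. The log2 fold change was 0.19 ± 0.20 (SE; 95% interval -0.24 to 0.62; edgeR adjusted p = 0.632), which covers 84.8% to 154% of the control level. In this comparison 4.56% of genes tested passed, 2.07% upwards, and the groups did not overlap in 29.9%, in 14.9% upwards. When replicate 1 of both knock-downs was left out, a fit in which 35.6% of all genes passed, the fold change was 0.40 (edgeR adjusted p = 3.18e-05). It was 0.40 without CCDC97 knock-down replicate 1 alone, 0.015 without replicate 2 and 0.12 without replicate 3, and none of these 3 passed.

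**Figure D2:**
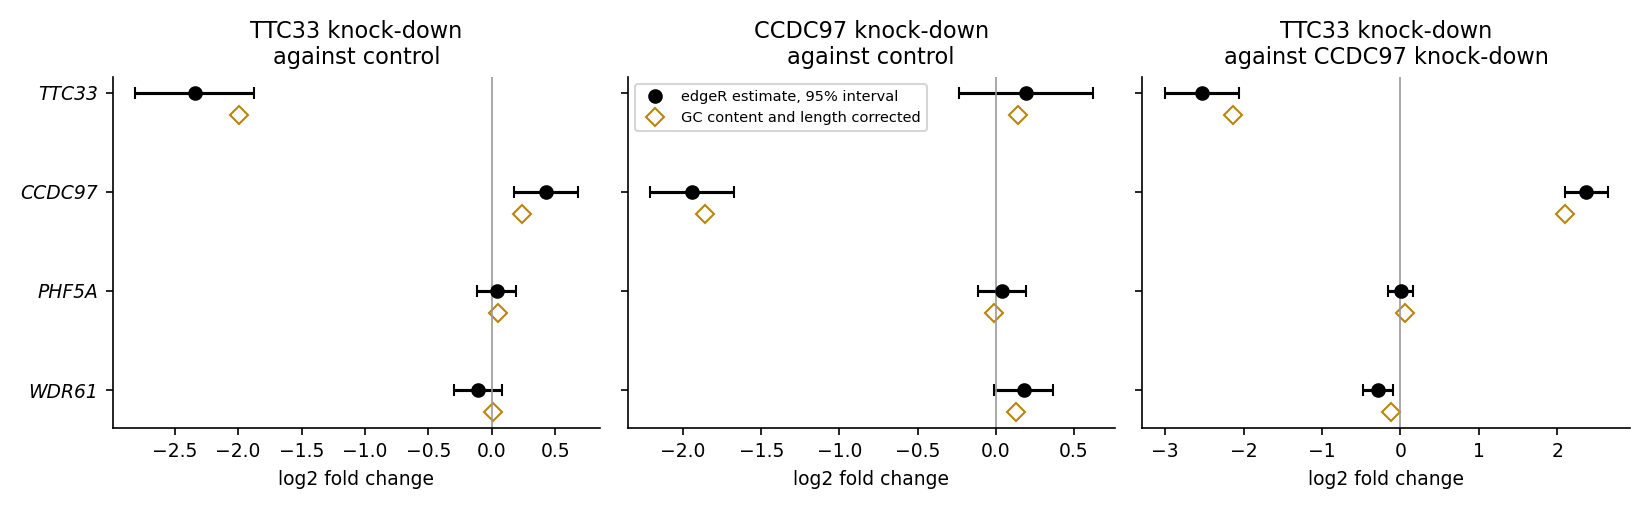
Log2 fold change of each gene in the 3 comparisons, one panel per comparison. Black circles and bars are edgeR estimates with 95% intervals, and open diamonds show values after correction for GC content and length. The intervals of PHF5A include 0 in all panels, and those of TTC33 and CCDC97 lie far from 0 in their own knock-downs.

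PHF5A, the SF3B subunit of the assembly, did not pass in either knock-down and had the narrowest intervals of the 4. The gene (ENSG00000100410; chromosome 22, 41459717 to 41468725, minus strand) had 41.6, 41.6 and 41.1 CPM with TTC33 depleted, and 39.4, 41.9 and 43.0 CPM with CCDC97 depleted. All 9 libraries fell between 38.9 and 43.0, and both knock-downs overlapped the controls. The level relative to control had a 95% interval of 92.5% to 114% in the TTC33 and of 92.4% to 114% in the CCDC97 knock-down. Both log2 fold changes were 0.04 (edgeR adjusted p = 0.729 and 0.805). An interval of this width leaves room for small changes. Between the knock-downs the 95% interval of the log2 difference was -0.15 to 0.15.

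WDR61 did not pass against control in the main fit, where its fold changes were small and of opposite sign. After the correction for GC content and length given further on, both were above 0 and neither passed. They were 0.0074 with TTC33 and 0.13 with CCDC97 depleted (edgeR adjusted p = 0.949 and 0.183). The gene (ENSG00000140395; chromosome 15, 78277835 to 78299794, minus strand) had 53.3, 53.2 and 49.4 CPM in the TTC33 knock-down, all below the controls at 55.2 to 56.9, and groups were separated downwards in this way in 17.8% of genes tested. The log2 fold change was -0.11 ± 0.09 (SE; 95% interval -0.30 to 0.08; edgeR adjusted p = 0.42). In the CCDC97 knock-down it had 56.6, 71.1 and 62.4 CPM in replicates 1, 2 and 3, where replicate 1 was within the control range and the others above it. The log2 fold change there was 0.18 ± 0.09 (SE; 95% interval -0.014 to 0.37; edgeR adjusted p = 0.277). It was 0.08 without CCDC97 knock-down replicate 2. With replicate 1 of both knock-downs left out it was 0.26 (edgeR adjusted p = 0.00152), in a fit where 35.6% of all genes passed.

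Set directly against each other, the knock-downs differed in WDR61. Its level in the TTC33 knock-down was 82.0% of that in the CCDC97 knock-down (95% interval 71.8% to 93.7%; log2 difference -0.29 ± 0.09, SE; edgeR adjusted p = 0.0396), and the groups did not overlap, a separation seen in 30.4% of genes, in 14.5% downwards and 15.9% upwards. Among genes tested 21.5% passed, 10.2% as lower and 11.3% as higher. The call was lost in 7 of 9 analyses that left out a library, with log2 differences of -0.36 to -0.20, the smallest without CCDC97 knock-down replicate 2, and with the replicate number as a block (edgeR adjusted p = 0.0849). Of the 9 it passed only in those without replicate 1 of 1 knock-down. Without replicate 1 of both it was -0.38 (edgeR adjusted p = 3.72e-05), in a fit where 55.2% of all genes passed. After the correction for GC content and length the difference was -0.12 (edgeR adjusted p = 0.186). TTC33 and CCDC97 differed between the knock-downs by -2.53 ± 0.22 and 2.37 ± 0.12 on the log2 scale (SE; edgeR adjusted p = 4.5e-05 and 2.44e-06).

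**Figure D3:**
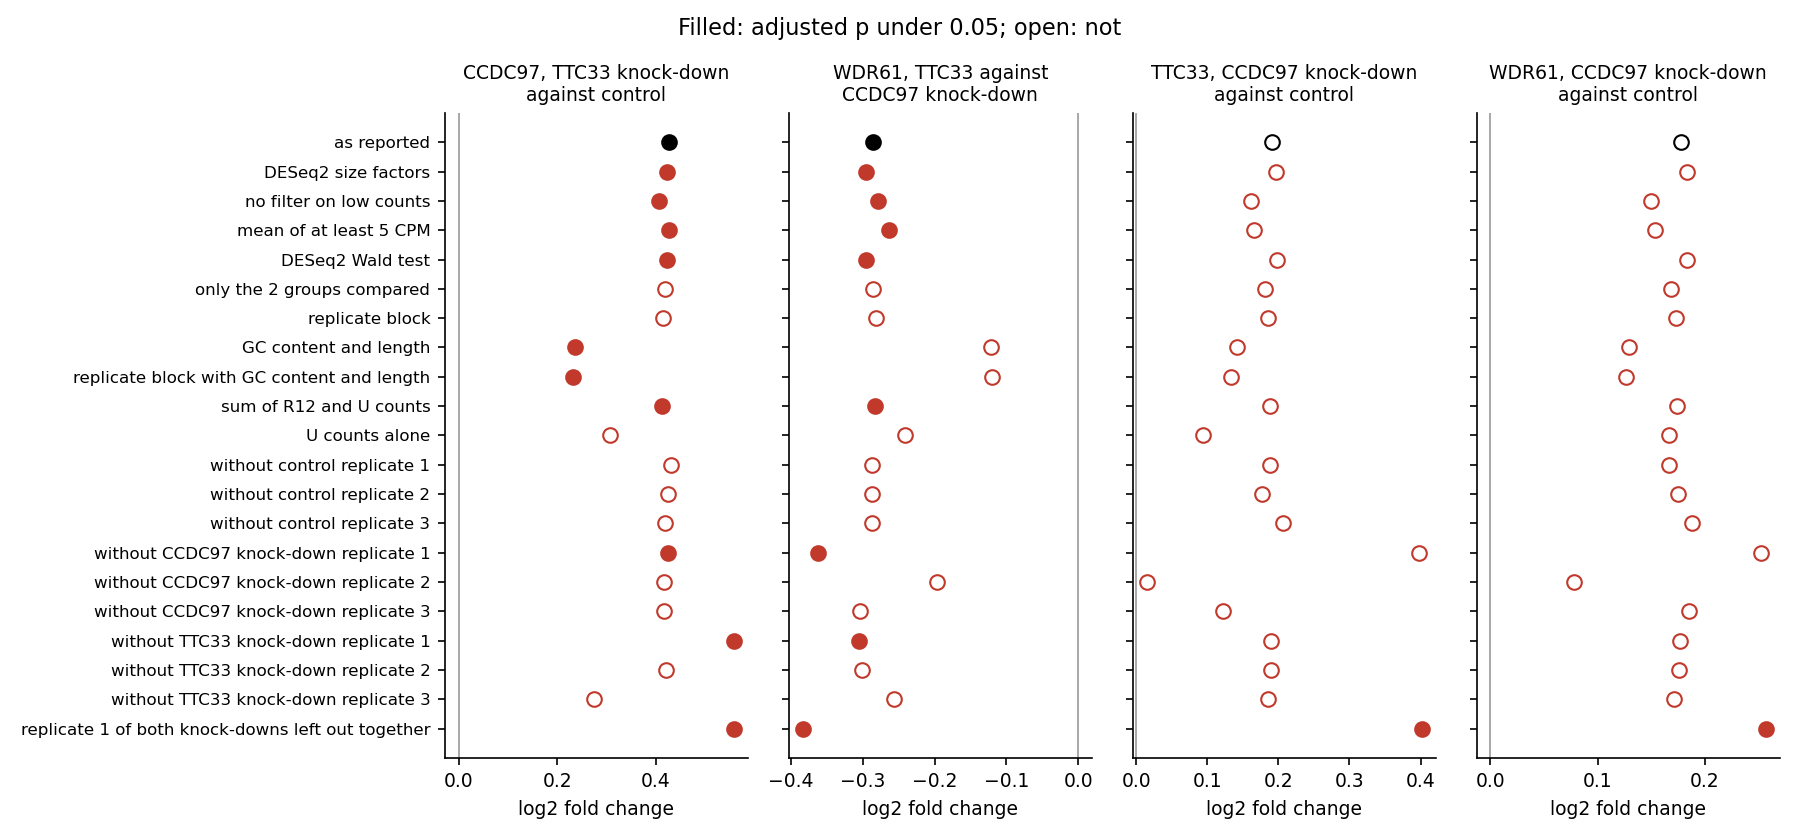
Log2 fold change under the reported analysis (black) and 20 alternatives (red) for the 4 results whose call depended on the analysis, with filled symbols for an adjusted p under 0.05. CCDC97 in the TTC33 knock-down stays above 0 throughout and is filled in 10 of the 20 alternatives. WDR61 between the knock-downs stays below 0 and is filled in 8.

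The 4 genes differ widely in GC content, and the libraries differed in how levels followed it. The longest transcript of TTC33 has 34.6% GC, and only 1.81% of tested genes have less. The share is 41.1% for WDR61, 47.9% for PHF5A and 59.8% for CCDC97. For each library a smooth trend of log2 level on GC content and length was fitted over all genes. At the GC content and length of TTC33 this trend was 0.03, -0.59 and -0.62 relative to controls in TTC33 knock-down replicates 1, 2 and 3. The observed log2 differences of TTC33 there were -1.96, -2.55 and -2.60. Observed minus trend came to -1.99, -1.96 and -1.99, closer together than the observed values. CCDC97 in its own knock-down went the other way. There the observed differences were -1.92, -1.97 and -1.93, the trend 0.09, -0.17 and -0.18, and the remainders -2.00, -1.79 and -1.76, with replicate 1 now apart.

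For CCDC97 in the TTC33 knock-down the trend was -0.03, 0.26 and 0.30 and the observed differences 0.12, 0.44 and 0.67. The remainders of 0.15, 0.18 and 0.37 were all above 0. In the fit with these trends removed, the log2 fold change of CCDC97 in the TTC33 knock-down was 0.23 ± 0.07 (SE; edgeR adjusted p = 0.0157), beside 0.43 without the correction. In that comparison 27.7% of all genes passed with the correction and 11.9% without it. For TTC33 in the CCDC97 knock-down the trend was -0.24, 0.16 and 0.15. The remainders were -0.09, 0.32 and 0.16, still of mixed sign, and the corrected fold change was 0.14 ± 0.08 (edgeR adjusted p = 0.244). For WDR61 in the TTC33 knock-down the trend was 0.05, -0.19 and -0.20, and the remainders were -0.12, 0.11 and 0.02 in place of 3 values below 0. With CCDC97 depleted its trend was -0.08, 0.10 and 0.12, and the remainders of 0.09, 0.24 and 0.03 were all above 0. In the line directed against each, the corrected log2 fold change was -1.99 ± 0.09 for TTC33 and -1.86 ± 0.07 for CCDC97 (SE). The trend is fitted to genes that may themselves respond to the knock-down, and its part in the uncorrected values cannot be told apart from such a response.

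**Figure D4:**
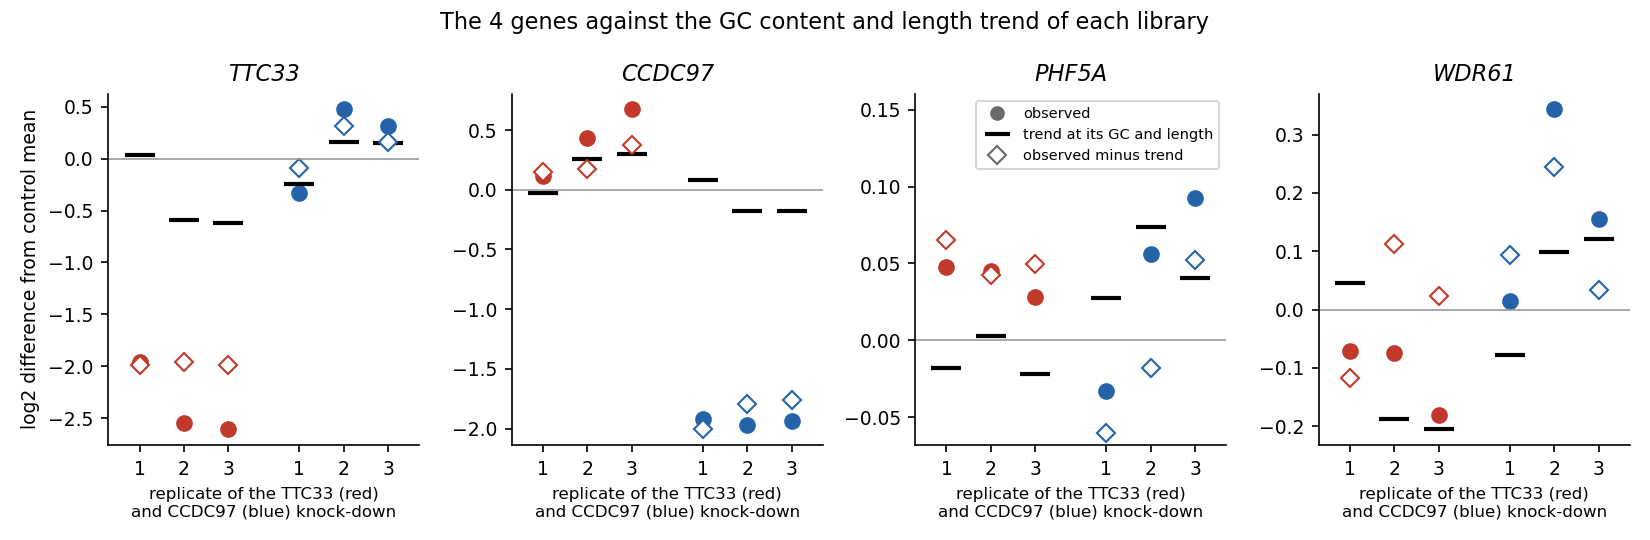
Log2 difference from the control mean for each gene in the 6 knock-down libraries, red for the TTC33 and blue for the CCDC97 knock-down, with a separate vertical scale in each panel. Filled circles are observed values, black bars the trend at the GC content and length of the gene, and open diamonds their difference. For TTC33 in its own knock-down the circles lie between -2.60 and -1.96 and the diamonds between -1.99 and -1.96.

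Each gene was also read against its neighbours in the genome, within 100 kb on either side. Of 40 annotated genes there, 21 were tested. In the TTC33 knock-down 1 of them passed, or 4.76% beside 11.9% of all genes. After the correction for GC content and length it was 4, or 19.0% beside 27.7%. The 1 was TOB2, which encodes an antiproliferative protein and lies 12694 bases from PHF5A (log2 fold change 0.42 ± 0.10, SE; edgeR adjusted p = 0.0222). That call was lost in 5 of 9 analyses without a library. PRKAA1, a catalytic subunit gene of AMP-activated kinase that lies 3404 bases from TTC33, had 91.4, 60.6 and 62.1 CPM in the TTC33 knock-down replicates 1, 2 and 3 against 92.8 to 97.1 in controls. All were below the controls, as in 17.8% of genes tested, replicate 1 only slightly. The log2 fold change was -0.40 and did not pass (edgeR adjusted p = 0.114), and was -0.08 after the correction (edgeR adjusted p = 0.221). Without replicate 1 of the TTC33 knock-down it was -0.62 (edgeR adjusted p = 0.00122), in a fit that called 6512 of all genes. PRKAA1 was singled out for its position.

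In the CCDC97 knock-down 1 of the 21 neighbours passed, or 4.76% beside 4.56% of all genes, and 3 after the correction, or 14.3% beside 18.8%. PTGER4, a prostaglandin receptor gene inside the long annotated span of TTC33 on the other strand, went from 2.63 to 3.99 CPM on average (log2 fold change 0.60 ± 0.13, SE; edgeR adjusted p = 0.0247; lost in 5 of 9 analyses without a library). It shares no annotated exon bases with TTC33. TGFB1, the transforming growth factor gene that overlaps CCDC97 on the other strand without shared exon bases, had log2 fold changes of -0.24 in the CCDC97 and 0.33 in the TTC33 knock-down, neither past the threshold. Beside CCDC97 at 26.0% of control, HNRNPUL1, which lies 2591 bases away on the same strand, had a log2 fold change of 0.03 in the CCDC97 knock-down (edgeR adjusted p = 0.895).

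Between the knock-downs 5 of the 21 neighbours passed, or 23.8%, which is near the 21.5% of all genes. On the log2 scale CARD6 (0.46), EXOSC5, a subunit gene of the RNA exosome (0.31), TGFB1 (0.57) and a processed pseudogene within WDR61 (AC090607.2, 0.60) were higher in the TTC33 knock-down, and PTGER4 was lower (-0.56). In analyses without a library the calls were lost in 8 of 9 for CARD6, in 7 for EXOSC5, TGFB1 and the pseudogene, and in 2 for PTGER4. After the correction EXOSC5 came to 0.05 and did not pass, TGFB1 came to 0.23 and CARD6 to 0.56, PTGER4 to -0.64 and the pseudogene to 0.80, these 4 past the threshold. A snoRNA gene that overlaps TTC33, and DNAJA4, AC090607.4, AC090607.1 and AC090607.5, which overlap WDR61, were not tested. The last 2 are antisense and share 126 and 94 exon bases with WDR61, so that without strand information their reads and those of WDR61 are not separable. No other row of the count tables has a symbol that starts with the symbol of 1 of the 4 genes.

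The proteins that share complexes with PHF5A and WDR61 were read from 5 lists holding 29 genes, all of them tested. In the TTC33 knock-down 3 rose, 1 fell and 25 did not pass, or 13.8% called beside 11.9% of all genes. The median log2 fold change of the 29 was 0.07, and that of all genes was 0.0045. In the CCDC97 knock-down 1 fell and 28 did not pass, or 3.45% beside 4.56% of all genes, with a median of 0.07. Both shares are near the background. After the correction for GC content and length 9 of the 29 passed in each knock-down, 8 higher and 1 lower, or 31.0%, beside 27.7% and 18.8% of all genes with a GC value. Without replicate 1 of both knock-downs 19 of the 29 passed with TTC33 and 17 with CCDC97 depleted, or 65.5% and 58.6%, beside 48.7% and 35.6% of all genes. The listed genes had mean control levels of 6.53 to 713 CPM. All genes tested were not matched to them for level, so these shares are a description only.

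Among the SF3B subunits that surround PHF5A, 1 of 6 rose in the TTC33 knock-down. In the CCDC97 knock-down edgeR called 0 of 6, with 2 at an unadjusted p under 0.05, and DESeq2 called 1 as higher. Over all genes DESeq2 called 7.91% there and 16.5% in the TTC33 knock-down. Unadjusted p-values were not counted over all genes, so those counts here and below have no background. SF3B4, which contacts RNA near the branch site, had 95.5, 112 and 132 CPM in the TTC33 knock-down against 82.4 to 87.2 in controls. All its knock-down values lay above the controls, as in 19% of genes tested. The fitted change was 0.42 ± 0.11 on the log2 scale (SE; edgeR adjusted p = 0.0334). The call was lost in 7 of 9 analyses without a library, and the change was 0.28 without TTC33 knock-down replicate 3. SF3B1, the largest subunit, which forms the branch-site pocket together with PHF5A, had log2 fold changes of -0.013 with TTC33 and 0.18 with CCDC97 depleted, and neither passed. Without CCDC97 knock-down replicate 1 the latter was 0.26 (edgeR adjusted p = 0.0347), in a fit that called 1860 of all genes. It was 0.11 without replicate 2, 0.15 without replicate 3 and 0.13 after the correction for GC content and length, none past the threshold. SF3B6 had the smallest adjusted p of the list in the CCDC97 knock-down, with a log2 fold change of 0.37 (edgeR adjusted p = 0.0643), and SF3B3 came next (0.14, edgeR adjusted p = 0.217). After the correction SF3B6 (0.28, edgeR adjusted p = 0.0197) and SF3B4 (0.20, edgeR adjusted p = 0.0352) passed there, or 2 of 6 beside 18.8% of all genes. With TTC33 depleted the same 2 passed after the correction (0.30 and 0.31), beside 27.7% of all genes. Of the 3 SF3A genes edgeR and DESeq2 called 0 in either knock-down, and 1 had an unadjusted p under 0.05 with TTC33 depleted. SF3A1 had the smallest edgeR adjusted p in the TTC33 knock-down (0.127) and SF3A2 came next (0.286), while in the CCDC97 knock-down it was SF3A3 (0.332) and SF3A1 (0.404).

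In the list of 12 other U2 snRNP proteins and branch-site factors 1 rose and 1 fell in the TTC33 knock-down, and 1 fell in the CCDC97 knock-down. SUGP1, a splicing factor that binds SF3B1, rose in the TTC33 knock-down (log2 fold change 0.42 ± 0.11, SE; edgeR adjusted p = 0.037; lost in 6 of 9 analyses). U2AF1, which recognises the AG at the end of introns, fell in both knock-downs, from 6.40 to 6.69 CPM in controls to 4.92, 4.47 and 4.71 with TTC33 depleted and to 3.79, 3.77 and 4.02 with CCDC97 depleted. Every library of either knock-down lay below every control, as in 17.8% (TTC33 knock-down) and 15% (CCDC97 knock-down) of genes tested. The log2 fold changes were -0.47 ± 0.10 and -0.76 ± 0.10 (SE; edgeR adjusted p = 0.0131 and 0.0024), the first lost in 4 of 9 analyses without a library and the second in none. The 2 comparisons share the control libraries, and GRCh38 holds a near-identical copy of U2AF1 that can take its reads, so its level is uncertain.

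Among the 5 PAF1 complex genes beside WDR61, PAF1 itself rose in the TTC33 knock-down, to 205, 261 and 281 CPM from 187 to 193 in controls (log2 fold change 0.40 ± 0.10, SE; edgeR adjusted p = 0.0278; lost in 5 of 9 analyses without a library). CDC73 split the replicates, with 109, 61.9 and 62.8 CPM against 100.2 to 109 in controls, and did not pass (-0.42, edgeR adjusted p = 0.175). It was -0.15 after the correction (edgeR adjusted p = 0.115). Without replicate 1 of the TTC33 knock-down it was -0.75 (edgeR adjusted p = 0.000464), in a fit that called 6512 of all genes. With CCDC97 depleted edgeR called 0 of 5 (2 at an unadjusted p under 0.05, and 1 by DESeq2, which called 7.91% of all genes). LEO1 and CTR9 had the smallest edgeR adjusted p (0.0808 and 0.198), with log2 fold changes of 0.31 and 0.17. After the correction both passed (0.23 and 0.13, edgeR adjusted p = 0.0412 and 0.046), or 2 of 5 beside 18.8% of all genes. With TTC33 depleted 2 of 5 passed after the correction, PAF1 (0.27) and CTR9 (0.18), beside 27.7% of all genes. Of the 3 genes of the SKI complex and its exosome link edgeR called 0 against control in either knock-down. At an unadjusted p under 0.05 there were 0 with TTC33 and 2 with CCDC97 depleted. DESeq2 called 0 and 1, beside 16.5% and 7.91% of all genes. HBS1L, whose short isoform joins SKI to the exosome, and the SKI scaffold TTC37 had log2 fold changes of -0.15 and -0.13 with TTC33 depleted, and of 0.29 and 0.28 with CCDC97 depleted. In the TTC33 knock-down the smallest edgeR adjusted p of this list were 0.27 for HBS1L and 0.309 for SKIV2L, the helicase, and in the CCDC97 knock-down 0.0961 for HBS1L and 0.19 for TTC37. After the correction HBS1L and TTC37 passed as higher with CCDC97 depleted (0.23 and 0.22, edgeR adjusted p = 0.00703 and 0.0136). That is 2 of 3 beside 18.8% of all genes, and with TTC33 depleted 0 passed beside 27.7%. Without replicate 1 of both knock-downs all 3 passed in each, beside 48.7% of all genes with TTC33 and 35.6% with CCDC97 depleted.

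**Figure D5:**
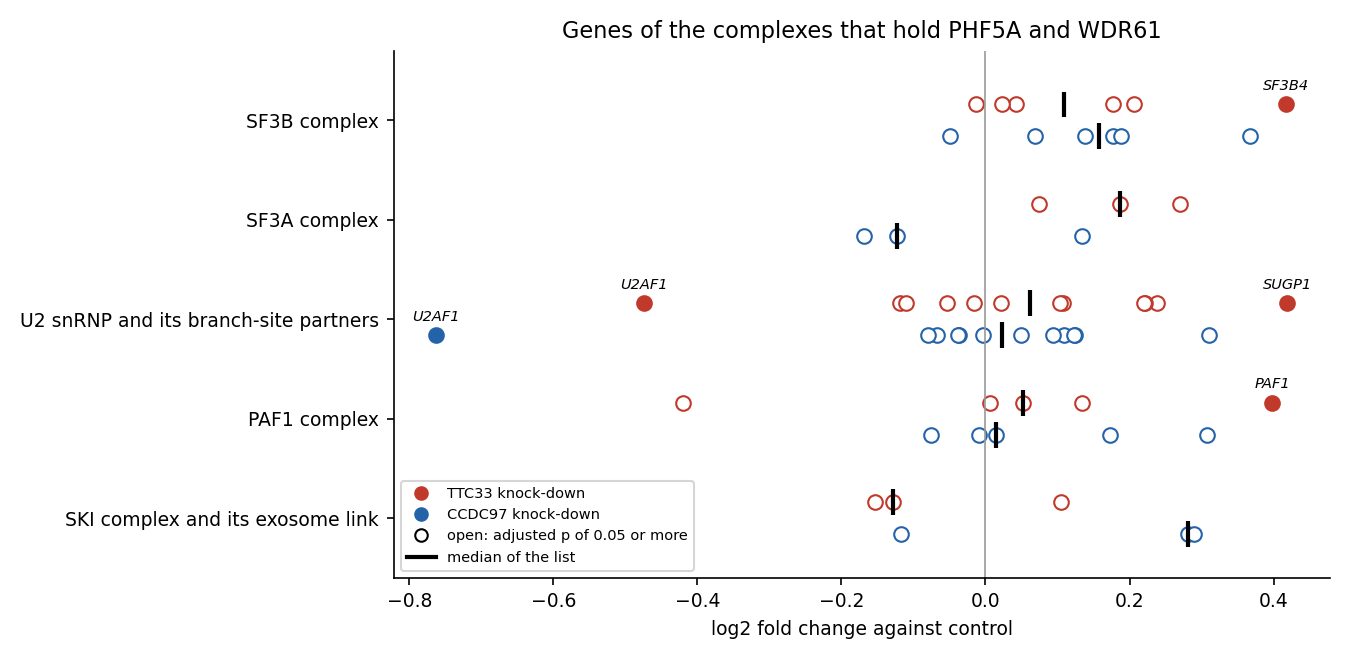
Log2 fold change against control of the 29 genes in the 5 lists, red for the TTC33 and blue for the CCDC97 knock-down, with filled symbols for an adjusted p under 0.05 and black bars at list medians. The called genes are SF3B4, SUGP1, PAF1 and U2AF1 in the TTC33 knock-down and U2AF1 in the CCDC97 knock-down.

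Between the knock-downs 7 of the 29 passed, or 24.1% beside 21.5% of all genes. All 3 SKI genes were among them, with HBS1L (-0.44 ± 0.09, SE; edgeR adjusted p = 0.00792) and TTC37 (-0.41) lower in the TTC33 knock-down and SKIV2L (0.22) higher. HBS1L passed in each of the 9 analyses without a library, whereas TTC37 was lost in 5 and SKIV2L in 7. After the correction for GC content and length HBS1L and TTC37 came to -0.19 and -0.17, still past the threshold, and SKIV2L to -0.015. PAF1 (0.41), SF3A1 (0.31) and SUGP1 (0.37) were higher in the TTC33 knock-down and SNRPB2, a U2 snRNP protein, was lower (-0.36). Those calls were lost in 4, 4, 7 and 4 of 9 analyses, and SUGP1 and SNRPB2 also lost them after the correction, with 0.13 and -0.013.

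The genes whose pattern over the 9 libraries was most like each of the 4 were ranked by Pearson's correlation of log2 CPM among 11514 other genes whose mean reached 5 CPM. The points share the 3 groups and the GC trend of each library, so these correlations are a description only. For TTC33 they were CA2, a carbonic anhydrase (r = 0.997), GALNT3, which starts O-linked glycosylation (0.996), and TGFBR3, a co-receptor for TGF-beta (0.994). Their log2 fold changes in the TTC33 knock-down were -0.70, -1.08 and -0.99, which the choice by correlation over these libraries fixes in direction. As an example of the shared pattern, TGFBR3 had 41.0, 33.3 and 32.4 CPM in TTC33 knock-down replicates 1, 2 and 3 against 70.0 to 72.4 in controls.

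For CCDC97 the most alike were CYB5R3, a cytochrome b5 reductase (r = 0.994), MTOR, the growth-regulating kinase (0.992), and STAT2, a transducer of interferon signals (0.991). In the CCDC97 knock-down they had log2 fold changes of -2.38, -0.74 and -0.50, again with the direction fixed by the choice. In TTC33 knock-down replicates 1, 2 and 3 the levels were 125, 170 and 211 CPM for CYB5R3, and 260, 268 and 271 CPM for MTOR.

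For WDR61 the most alike were PGK1, a glycolytic kinase (r = 0.988), the ribosomal protein gene RPS3A (0.986) and RAN, the GTPase of nuclear transport (0.985). None of them passed edgeR's test against control in either knock-down. Like WDR61, each passed as lower in the TTC33 than in the CCDC97 knock-down, a direction fixed by the choice. The log2 differences were -0.27, -0.47 and -0.38 (edgeR adjusted p = 0.0468, 0.00916 and 0.0123), lost in 7, 0 and 1 of 9 analyses without a library. RPS3A had 1040, 1407 and 1158 CPM in the CCDC97 knock-down, where replicate 2 was highest as for WDR61. For PHF5A, which barely moved, the best matches were weaker: SETD3, a histidine methyltransferase (r = 0.902), ZNF165 (0.899) and VPS35L, an endosomal sorting subunit (0.893). Among the 4 themselves the correlations were 0.76 between TTC33 and WDR61, -0.81 between CCDC97 and WDR61, -0.67 between TTC33 and CCDC97, and between -0.16 and 0.31 for pairs with PHF5A.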

How the data were processed

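The authors deposited whole-number counts of reads per gene, 2 tables per library marked R12 and U, whose meaning is not stated. The submitters' processing notes name Trimmomatic 0.39, HISAT2, HTSeq 2.0.1 and the build GRCh38. Neither the annotation release nor a strand setting is stated there or in the labels. R12 counts were used, and rows that name no gene, 33.4% to 57.9% of the counts, were left out.

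Genes kept by filterByExpr were scaled with TMM factors and fitted with a term per group in edgeR 4.0.16 (R 4.3.3), quasi-likelihood, over all 9 libraries (6 residual degrees of freedom), threshold 0.05. Standard errors are the fold change over the root of its F statistic, and 95% intervals use the moderated degrees of freedom. Log2 CPM use a prior count of 2. The script was tested on simulated data. Alternatives were DESeq2 1.42.0 (size factors or Wald test), 2 other filters, fits to only the groups compared, a block for the replicate number, trends on GC content and length fitted with mgcv 1.9.3 on GENCODE release 29 (98.6% of tested genes), the sum of R12 and U or U alone, and leaving out libraries.

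The genes, lists, heptamers and alternatives were chosen with earlier results of these data known. Named beside the 4 genes are list members that passed or else the 2 of smallest adjusted p, neighbours within 100 kb that passed or overlap, and the 3 most correlated genes. SF3B1, CDC73, PRKAA1 and HNRNPUL1 were added by hand.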

Additional observations from a re-analysis of the deposited data

How the results depend on the processing

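Of 240 results of the 4 genes under alternatives, 203 kept direction and side of the threshold. The falls of both targeted genes, and their differences between the knock-downs, were among these throughout. CCDC97 in the TTC33 knock-down no longer passed with only the 2 groups compared (0.42), with the replicate block (0.41) and with U counts alone (0.31), and ranged from 0.27 to 0.56 without a library. WDR61 between the knock-downs no longer passed with only the 2 groups compared (-0.29), the replicate block (-0.28), GC content and length (-0.12, also -0.12 with the block) and U counts alone (-0.24), and ranged from -0.36 to -0.20 without a library. With replicate 1 of both knock-downs left out, TTC33 (0.40) and WDR61 (0.26) passed in the CCDC97 knock-down, as did 35.6% of all genes. Among the 4 genes signs turned only for uncorrected values between -0.11 and 0.04. PHF5A between the knock-downs, at 0.0013, became -0.0073 with DESeq2 size factors, -0.0065 with the Wald test, -0.0054 with R12 and U summed, -0.060 with U alone and -0.037 without both replicates 1, and ranged from -0.035 to 0.021 without a library, being below 0 without replicate 1 of the CCDC97 (-0.035) or the TTC33 knock-down (-0.0025). With GC content and length, PHF5A in the CCDC97 knock-down became -0.0096 (-0.0090 with the block), WDR61 in the TTC33 knock-down 0.0074 (0.0055) and SKIV2L between the knock-downs -0.015 (-0.016). With U alone, PHF5A had -0.30 in the TTC33 and -0.24 in the CCDC97 knock-down. The cause was not tested. Deviations of same-numbered libraries from their group means correlated between -0.50 and 0.09. These deviations also hold the GC trend of each library. They therefore cannot decide whether same-numbered libraries were prepared together.

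Counts of all genes called moved more. In the TTC33 knock-down 2186 became 3821 without a filter, 756 with the replicate block, 4990 with GC content and length (4553 with the block), 362 with U alone, 9129 without both replicates 1, and 552 to 6512 without a library. In the CCDC97 knock-down 835 became 1369 without a filter, 1447 with the Wald test, 1339 with only the 2 groups compared, 240 with the block, 3385 with GC content and length (3002 with the block), 69 with U alone, 6675 without both replicates 1, and 203 to 1981 without a library. Between the knock-downs 3943 became 1479 with only those groups, 1857 with the block, 709 with U alone, 10362 without both replicates 1, and 1528 to 7767 without a library. The U tables hold 1558847 to 4875626 gene counts, which limits their precision.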

Other observations

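The smaller U tables were deposited for the same libraries, with their meaning not stated, and were used above only as an alternative. They held 8.55% to 14.9% of the summed R12 and U counts of PHF5A and 4.42% to 11.8% of those of CCDC97, beside 6.55% to 11.9% over all genes. On U counts alone TTC33 had 8.79, 6.20 and 10.3 CPM in the TTC33 knock-down replicates 1, 2 and 3, from 24, 22 and 25 reads, against 30.8 to 38.7 in controls, and CCDC97 had 16.6, 11.3 and 10.5 CPM in the CCDC97 knock-down against 44.1 to 59.4. The CCDC97 values rest on 50, 30 and 15 reads. In these reads too every value of a targeted gene in its own knock-down lay below every control. The share of all genes separated in this way on U counts was not counted. PHF5A, level in the R12 tables, was more variable in the U tables, with 77.3, 50.5 and 64.5 CPM in control replicates 1, 2 and 3, 49.1 to 55.8 in the TTC33 and 50.3 to 58.2 in the CCDC97 knock-down. The lowest control lay within the knock-down ranges, and neither comparison passed (edgeR adjusted p = 0.263 and 0.657).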
